A study of Homo sapiens with 2 samples.

Results

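The 34 genes described here act in homologous recombination and in the Fanconi anaemia pathway. They were taken from a list of named genes, with no measured value in the rule, out of 19821 protein-coding genes on chromosomes 1 to 22, X and Y. These genes were nonetheless chosen with earlier results of these data known. NRF-1 occupancy at their promoters was read from ChIP-seq peaks in U251, an established human glioblastoma cell line, after transfection of either a control siRNA (siControl) or an siRNA that targets AATF (siAATF), a transcription cofactor that the study links to NRF-1. The cell line and the NRF-1 antibody were the same in both conditions, and the study's legends name siAATF #1 as the siRNA used. Both sample labels name U251, whereas the design text of the series names U138, and the sample labels were followed. There was 1 peak list per condition, with 18014 peaks in siControl and 18454 in siAATF, so there was no replicate spread and no test between the conditions. The number of reads behind each list was unknown. The peak lists hold no measure of AATF, so the knockdown itself could not be checked in them.

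Homologous recombination repairs double-strand breaks by copying an intact sister chromatid. Broken ends are first resected to single strands, BRCA2 and its partners then act on those strands, and the matching sequence is searched for and copied. The Fanconi anaemia pathway unhooks crosslinks between the DNA strands: a core complex of FANC proteins ubiquitinates FANCD2 and FANCI, which brings in nucleases, and the resulting break is repaired by recombination. NRF-1 recognises, as a transcription factor, a GC-rich palindrome in the promoters of mitochondrial and many housekeeping genes. AATF is known as a regulator of transcription and of the DNA damage response, and several of the genes below are the kinases and repair factors of that response.

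NRF-1 words lay inside 12 of the 32 promoter peaks of these genes in siControl, 37.5%, close to the 36.7% of all coding genes with a promoter peak. Promoters were taken as 1000 bp either side of any coding transcript start, and the peak of a gene was its promoter peak with the highest −log10 q, the significance that the peak caller gave it. In those peaks the 8-letter centre of the NRF-1 palindrome, CGCATGCG, was searched exactly, along with a loose form that leaves 1 base free, CGCANGCG on one strand and CGCNTGCG on the other. The loose form includes the exact core, and neighbouring matches can overlap. All sequences below are from the hg19 reference (GRCh37), written 5′ to 3′ on the strand of the gene, with the matching words in capitals. The first is shown because it has the exact core closest to a start: it spans position −57 to +13 of SLX4, a scaffold for nucleases, at chr16:3661595-3661664 on the minus strand. It holds 3 loose matches, 1 of them the exact core, and the exact core lies 0.5 bp from the midpoint of the siControl peak. The capitals also mark 2 matches of the shifted word described with the next sequence, which overlap the exact core.
SLX4: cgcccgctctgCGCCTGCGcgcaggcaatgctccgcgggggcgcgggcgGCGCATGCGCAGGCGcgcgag
The next covers the 120 bases before the start of XRCC2, a member of the BCDX2 complex, at chr7:152373227-152373346 on the minus strand, and is shown because XRCC2 had the highest-ranked peak of the 34 genes. It has a loose match and, further upstream, the same palindrome read from a shifted frame, GCGCATGC (GCATGCGC on the other strand), a word that was added after the data had been seen.
XRCC2: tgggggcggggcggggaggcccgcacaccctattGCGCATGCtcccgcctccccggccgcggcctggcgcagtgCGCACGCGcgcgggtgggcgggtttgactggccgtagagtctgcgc
Shorter windows of 30 bases show 4 further genes with high-ranked peaks and 2 whose peaks held the same kind of word at a middle rank. They are PALB2 (chr16:23652667-23652696, minus strand, with the word centred at position −50 from the start), RAD50 (chr5:131892637-131892666, plus strand, at −18), ATM (chr11:108093609-108093638, plus strand, at −170) and RBBP8 with its exact core (chr18:20513774-20513803, plus strand, at 498 inside the gene and outside the exons of its canonical transcript). The middle-ranked ones are MRE11 (chr11:94227369-94227398) and CHEK2 (chr22:29138167-29138196), both on the minus strand and both with the word at −374.
PALB2: gtctacggctgCGCGTGCGcaggccgaatg
RAD50: agcggcgtggaCGCGTGCGggcctagaggc
ATM: ggtggacatggCGCAGGCGcgtttgctccg
RBBP8: agcccgccccgCGCATGCGccgactgcggc
MRE11: cccgtgagctcCGCCTGCGgccttccaaac
CHEK2: taattgcttccCGCCTGCGacgcagcatcg

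Nearly all of the 34 genes carried an NRF-1 promoter peak in both conditions. A promoter peak was present for 32 of 34 genes in siControl and for 32 of 34 in siAATF, 94.1% in each, with an exact Clopper-Pearson 95% interval of 80.3% to 99.3%. The interval covers counting error only. The share over all coding genes was 61.0% in siControl and 60.6% in siAATF. The peaks of 31 genes were present in both lists. BRIP1, a helicase that partners BRCA1, had a peak only in siControl, a pattern that 1.62% of coding genes showed. FANCD2, the central ubiquitinated protein of the Fanconi pathway, had a peak only in siAATF, as did 1.17% of coding genes. RAD51B, a member of the BCDX2 complex, had none in either list. With only peaks of −log10 q of at least 5 counted, 30 of 34 genes kept a promoter peak in siControl, against 51.4% of coding genes. The siAATF count was also 30 of 34, again against 51.4%. The genes without such a peak were RAD51B, FANCD2 and BRIP1 in both lists, with CHEK1 added in siControl and FANCF in siAATF.

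The members that differed in presence between the lists had peaks at the weak end. The BRIP1 peak in siControl (chr17:59940439-59940946, 508 bp wide) had a −log10 q of 1.84 and a fold enrichment of 3.68 over the local background. The nearest siAATF peak lay 63991 bp from a BRIP1 start. The FANCD2 peak in siAATF (chr3:10067822-10068021, 200 bp wide) had a −log10 q of 1.83 and a fold enrichment of 3.62, and the nearest siControl peak lay 15079 bp from a start of the gene. Both values stood close to the lowest −log10 q in the lists, 1.03 in siControl and 1.02 in siAATF. RAD51B had its nearest peak 2817 bp from a coding start in siControl and 2935 bp in siAATF, with −log10 q of 3.94 and 4.30. Neither a gain nor a loss can be told apart from a peak passing or missing the caller's threshold at this unknown depth.

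A pair of rankings was used to set peaks side by side, each from 0 for the weakest peak of a list to 100 for the strongest. The q rank orders peaks by −log10 q, and the fold rank orders them by fold enrichment over the local background. The peaks of the 34 genes had a median q rank of 69.4 in siControl and 70.2 in siAATF, where the promoter peaks of all coding genes had 65.2 and 66.2. Their median fold rank was 77.8 in siControl and 74.9 in siAATF, against 63.2 and 64.4 over all coding genes. The median peak was 786 bp wide in siControl and 808.5 bp in siAATF, and thus narrower than the 856 and 870 bp of all promoter peaks. A q rank of at least 90 was reached by 4 of 34 genes in siControl (XRCC2, SLX4, PALB2 and RBBP8), where 9.82% of coding genes reached it. In siAATF 5 of 34 genes reached it (XRCC2, SLX4, PALB2, RAD54B and RAD50), against 10.1% of coding genes.

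**Figure D1:**
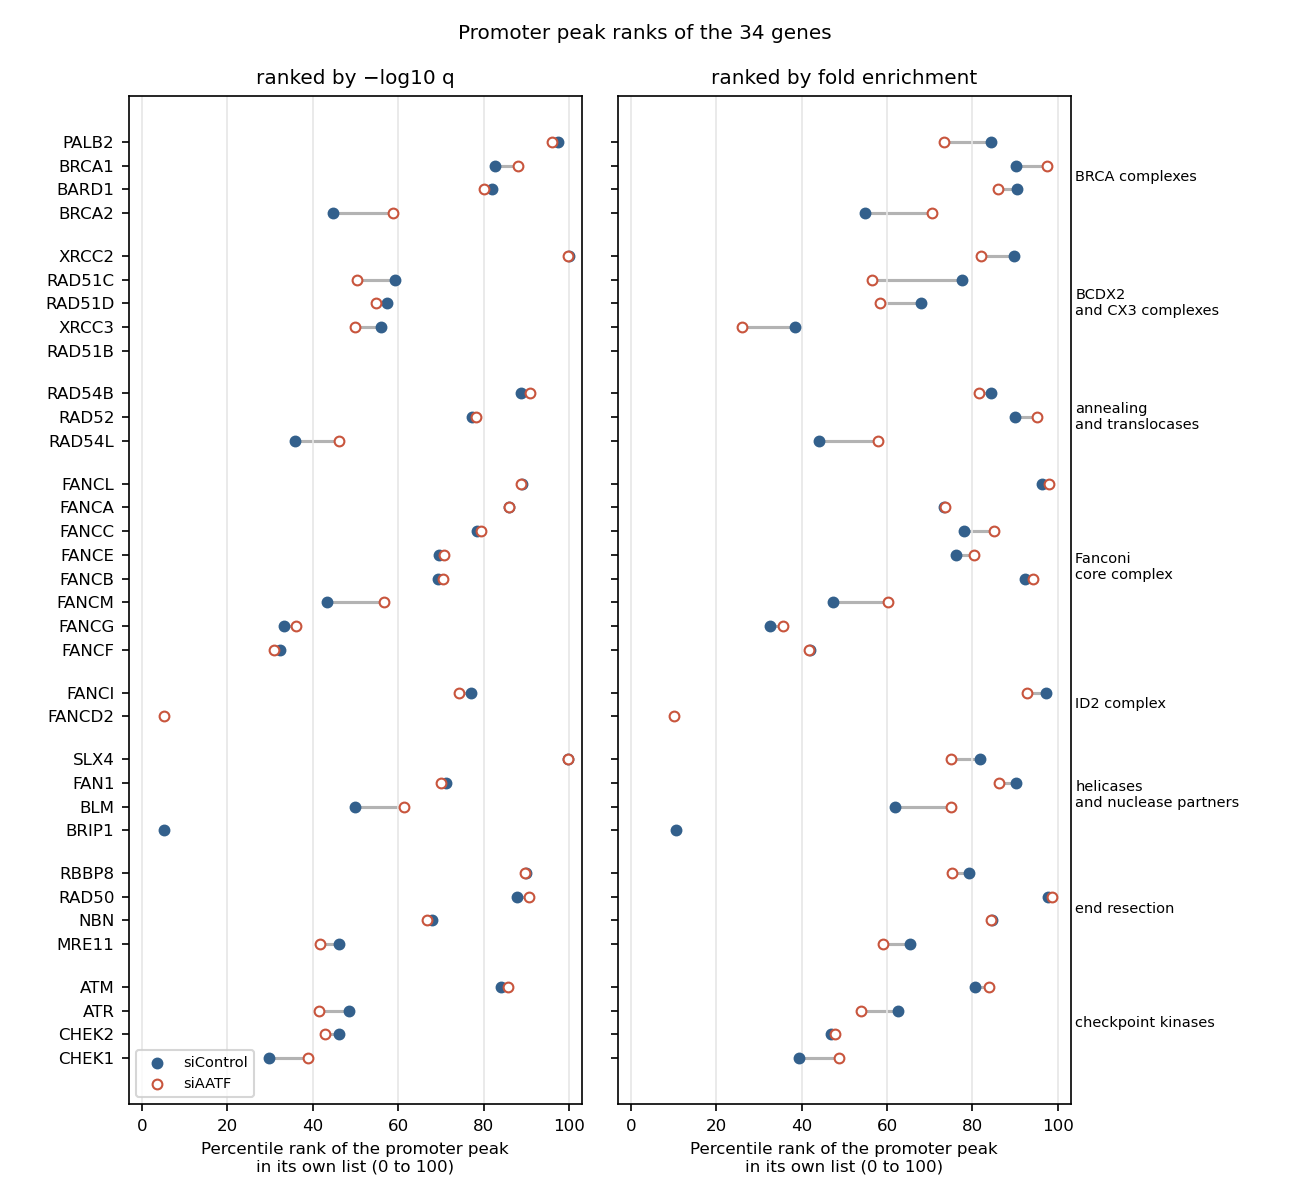
Percentile rank of the promoter peak of each of the 34 genes in its own list, by −log10 q (left) and by fold enrichment (right), with filled points for siControl and open points for siAATF, 1 peak list each, and genes grouped by role. XRCC2, SLX4 and PALB2 sit at the right edge of the left panel in both conditions, and a grey line joins the 2 conditions of each gene with a peak in both.

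The BRCA complexes had a strong peak at PALB2, a weaker one at BRCA2, and BRCA1 and BARD1 between them in q rank. BRCA1 is a ubiquitin ligase that works with BARD1, and PALB2 bridges BRCA1 to BRCA2. The BRCA1 peak (chr17:41276979-41277765 in siControl) had a −log10 q of 43.7 in siControl and 51.6 in siAATF, with fold ranks of 90.1 and 97.4. BARD1 (chr2:215674266-215675146) had 41.8 and 34.0, with fold ranks of 90.4 and 86.1. PALB2 (chr16:23652131-23653167), whose loose core is printed above, had a −log10 q of 83.4 in siControl and 70.5 in siAATF. It was the highest of the group, with q ranks of 97.4 and 96.0. The lowest was BRCA2 (chr13:32889330-32889948), with a −log10 q of 8.01 in siControl and 12.9 in siAATF. Its fold rank of 54.8 in siControl and 70.4 in siAATF differed by 15.7 points, the largest upward difference among the 31 genes compared at their chosen peaks. BRCA1 also had a peak at an alternative start that faces NBR1 (chr17:41322720-41323429), where the fold rank was 83.8 in siControl and 71.8 in siAATF, so its starts differed in direction between the lists.

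RAD51B, RAD51C, RAD51D, XRCC2 and XRCC3 make up the BCDX2 and CX3 complexes, which assist strand exchange. Their peaks were lower in siAATF at each of the 4 members with a peak, in both rankings. Their median fold rank change, siAATF minus siControl, was −11.1 points. Of all coding genes with a promoter peak in both lists, 48.8% had a lower fold rank. XRCC2 (chr7:152372709-152373659) had the strongest peak of the 34 genes, with a −log10 q of 108 in siControl and 90.5 in siAATF. Its q rank hardly differed, at 99.95 and 99.8, while its fold rank was 89.8 in siControl and 81.9 in siAATF. RAD51C (chr17:56769677-56770305) had a fold enrichment of 7.80 in siControl and 5.97 in siAATF and a −log10 q of 14.1 and 9.38. Its fold rank of 77.5 in siControl and 56.4 in siAATF differed by −21.0 points, although 99.4% of the siControl peak was covered by the siAATF peak. RAD51D (chr17:33446505-33447084) had fold ranks of 68.0 and 58.3. XRCC3 (chr14:104181395-104182598), the lowest of the group with a peak, had fold ranks of 38.5 in siControl and 26.0 in siAATF, and its second start (chr14:104178408-104178707) had 21.7 and 3.67. FANCI, the only compared member of its complex, was also lower in both rankings, and no other of the 8 role groups had all of its compared members lower. The group was picked out after its values were seen, and each gene was measured in 1 list per condition.

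RAD52 anneals single strands, and RAD54L and RAD54B are translocases that act during strand exchange. RAD54B, on chromosome 8, had a −log10 q of 59.3 in siControl and 58.6 in siAATF, with q ranks of 88.8 and 90.9. RAD54L (chr1:46712896-46713390) had 5.77 and 7.99 and was the lowest of the group, with q ranks of 35.8 and 46.2. RAD52 has coding starts at distant sites on chromosome 12, and each site had a peak in both lists. At the canonical start (chr12:1058500-1059338 in siControl) the −log10 q reached 22.5 in siControl and 30.8 in siAATF, and the fold rank was 78.6 and 95.2. At the alternative start, which faces ERC1 (chr12:1099937-1100737), the −log10 q stood at 32.4 in siControl and 22.4 in siAATF, and the fold rank was 89.9 and 72.8. The order of the RAD52 starts was therefore opposite in the lists, and the peak chosen for the gene was at a different start in each.

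All 8 members of the Fanconi core complex had a promoter peak in both conditions, where 61.0% of coding genes had one in siControl and 60.6% in siAATF. In siAATF 7 of the 8 had a higher fold rank, with a median change of 2.54 points, and by q rank 2 of the 8 were lower. The 7 include FANCA, at 0.0965 points, and among all 31 compared members 16 were higher. The direction of this group was noted after its values were seen, with 1 list per condition. Of all coding genes with a promoter peak in both lists, 48.8% had a lower fold rank. The core complex is a ubiquitin ligase in which FANCL is the catalytic subunit and FANCM, a translocase, anchors it to DNA. FANCL (chr2:58468000-58468882) was the highest of the group, with a −log10 q of 60.2 in siControl and 53.5 in siAATF and fold ranks of 96.2 and 98.0. FANCB (chrX:14890886-14891646) had fold ranks of 92.3 and 94.3. FANCC (chr9:98079209-98080242) had 78.1 and 85.1, and FANCE (chr6:35419794-35420599) had 76.1 and 80.4. FANCA (chr16:89882554-89883643), a large subunit whose peak held a loose core at −134 from the start, had nearly the same fold rank in both lists, 73.5 each. FANCM (chr14:45604867-45605239) had a −log10 q of 7.60 in siControl and 11.8 in siAATF, and its fold rank was 47.3 and 60.3, a difference of 12.9 points. FANCG (chr9:35079546-35080129) had −log10 q values of 5.23 and 5.50. FANCF (chr11:22646945-22647479), the lowest of the group, had 5.02 and 4.63, and its siAATF peak overlapped 67.3% of its siControl peak, the smallest overlap among the 30 members whose chosen peaks overlapped.

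FANCD2 and FANCI form the ID2 clamp that the core complex ubiquitinates. FANCI (chr15:89786672-89787350) had a −log10 q of 31.8 in siControl and 25.4 in siAATF, with fold ranks of 97.3 and 92.8, whereas FANCD2 had only the weak siAATF peak given above. The called peaks thus stood far apart for the partners of 1 complex. At the unknown depth, a missing or weak call at FANCD2 does not show that NRF-1 was absent there. Among the helicase and nuclease partners, SLX4 (chr16:3661060-3662162) had the second strongest peak of the 34 genes, with a −log10 q of 100.0 in siControl and 88.4 in siAATF. Its fold rank was 81.8 in siControl and 74.9 in siAATF, while its q rank was 99.7 in both. FAN1 (chr15:31195708-31196490), a nuclease recruited by ubiquitinated FANCD2, had −log10 q values of 23.7 and 20.8. BLM (chr15:91260333-91260964), the helicase of Bloom syndrome, had 9.86 in siControl and 14.3 in siAATF, and its fold rank was 61.9 and 74.9. BRIP1, the lowest, had the peak in siControl alone.

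End resection starts with the MRE11, RAD50 and NBN complex and its cofactor RBBP8, also called CtIP. All 4 peaks held a loose core, and in RBBP8 there was also the exact core. Of the promoter peaks of all coding genes in siControl, 36.7% held a loose core and 6.65% the exact core. The share in this group of 4 was seen after the search, and over all members 12 of 32 peaks held a loose core. From the siControl peak midpoint the word lay 27.5 bp away in RAD50, 203 bp in NBN and 287 bp in MRE11. The RBBP8 words lay 171 bp (the exact core) and 225 bp away. RBBP8 (chr18:20513070-20514165) had a −log10 q of 62.7 in siControl and 55.8 in siAATF, with q ranks of 90.0 and 89.8. RAD50 (chr5:131892232-131893016) had 56.9 and 57.6, with the fold ranks of 97.6 and 98.7 standing near the top of each list. NBN, on chromosome 8, had 20.5 and 17.9. MRE11 (chr11:94226804-94227389), the nuclease itself, was the lowest of the group with 8.44 in siControl and 6.80 in siAATF. Of the checkpoint kinases, ATM and ATR sense DNA damage and CHEK2 and CHEK1 are their targets. ATM (chr11:108093242-108094264) had a −log10 q of 46.9 in siControl and 46.3 in siAATF and was the highest of the 4. ATR (chr3:142297332-142297934) had 9.20 and 6.75, and CHEK2 (chr22:29137747-29138775) had 8.49 and 7.13. CHEK1 (chr11:125495415-125496102) had 4.56 and 6.17, the lowest of the group, and its peaks lay inside the gene, with midpoints 700 and 793 bp after the canonical start.

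Peaks sat at the starts of most members and kept their place between the conditions. The canonical start was covered by the peak of 29 of 32 genes in siControl, against 83.6% over all coding genes with a promoter peak, the exceptions being RAD52, RAD54L and CHEK1. In siAATF it was covered for 28 of 32 genes, against 84.8%, with RAD54L, FANCD2, FANCF and CHEK1 not covered. Of the 31 genes with a peak in both lists, 30 had chosen peaks that overlapped, the exception being RAD52. Among these 30 genes, the siAATF peak covered 100% of the siControl peak in the median pair, and it was the wider of the pair in 24, where 56.9% of the coding genes with overlapping peaks had the wider peak in siAATF.

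**Figure D2:**
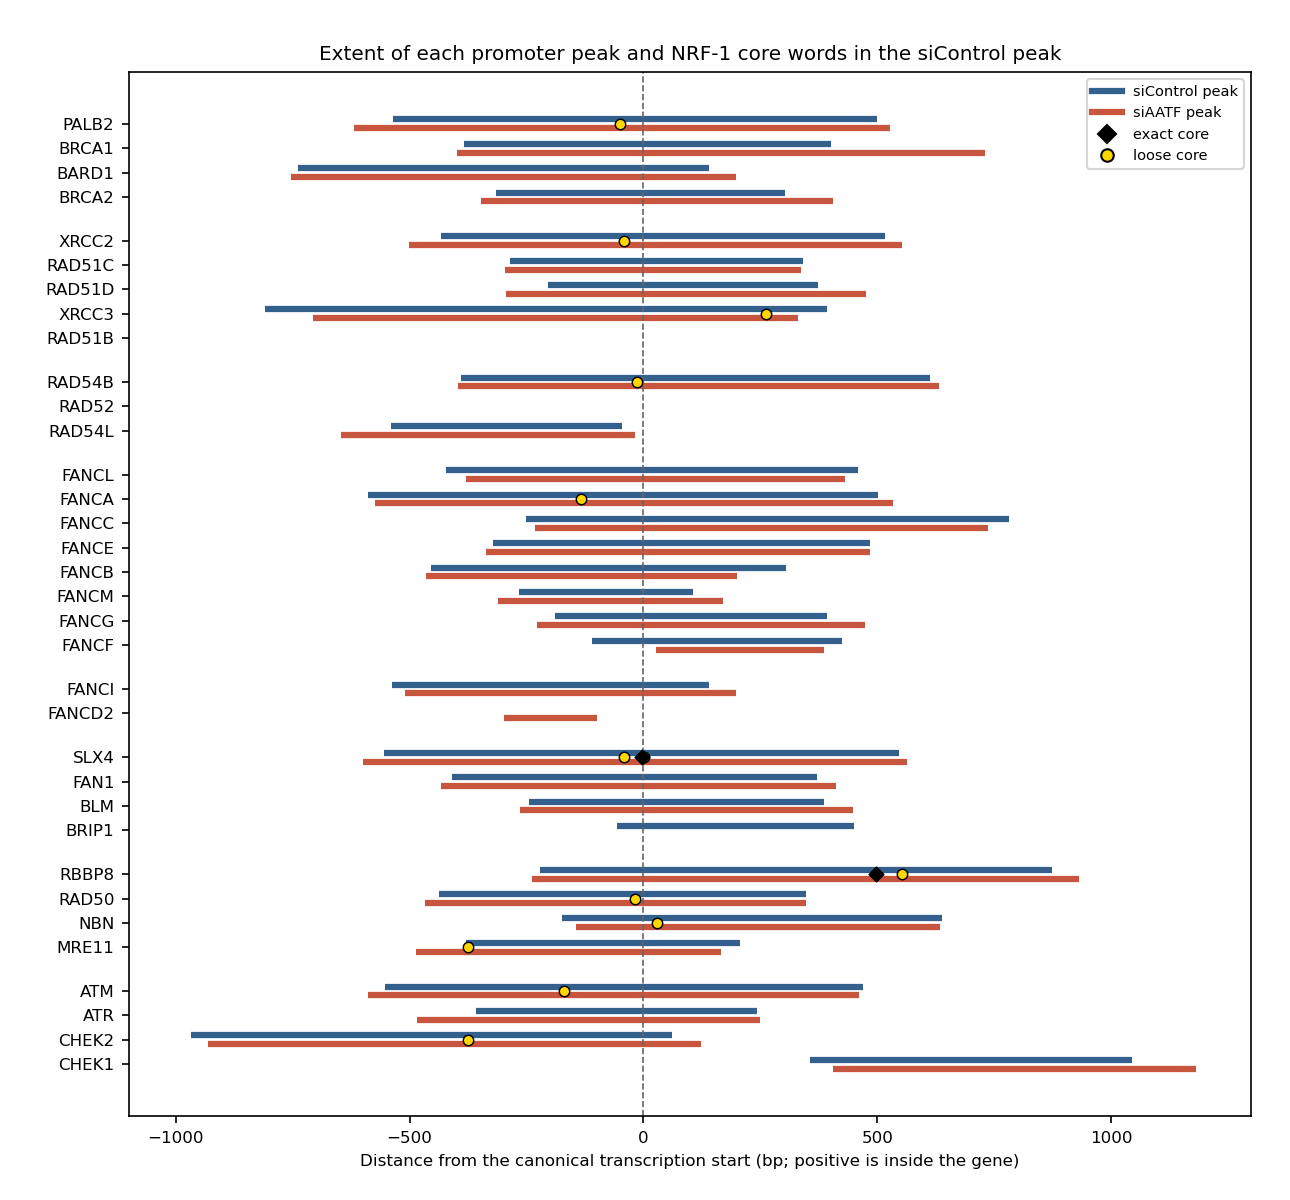
Extent of the promoter peak of each gene in bp from its canonical transcription start, positive inside the gene, for siControl and siAATF, with black diamonds at exact NRF-1 cores and yellow circles at loose ones (RAD52 is left out because its chosen peaks lie at different starts). Peaks of both conditions overlie one another around the start in most genes, and the CHEK1 peaks lie inside the gene.

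The exact core was in the promoter peak of 2 of 32 genes, SLX4 and RBBP8, in siControl and in siAATF. Over all coding genes with a promoter peak, 6.65% had it in siControl and 6.70% in siAATF, so the members' 6.25% was near the background. The loose core was in 12 of 32 peaks in each list, 37.5%, and the background was 36.7% in siControl and 36.6% in siAATF. The shifted word was in 3 of 32 peaks of each list (XRCC2, SLX4 and RBBP8), beside 9.91% of all promoter peaks in siControl and 9.99% in siAATF. A palindrome of the same bases in another order, CGCTAGCG, was in 0 of 32 siControl peaks, which allows a share of up to 9.38%, where 1.02% of all promoter peaks held it. None of these shares set the members apart from promoter peaks at large.

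Genes with a loose core had the higher q ranks within the set, as did coding genes in general, while their fold ranks stood closer to those of the other members. The 12 genes were PALB2, XRCC2, XRCC3, RAD54B, FANCA, SLX4, MRE11, RAD50, NBN, RBBP8, ATM and CHEK2. Their median q rank was 86.9 in siControl and 87.9 in siAATF, against 59.2 and 61.4 for the 19 other genes with a peak in both lists. Over all coding genes with a peak in both lists, the medians were 85.9 and 86.2 for the 4403 with a loose core and 55.6 and 56.6 for the 7375 without. The median fold rank of the members was 81.2 with a loose core and 76.1 without in siControl, and 75.1 and 74.9 in siAATF. Over all coding genes it was 74.9 with and 56.7 without in siControl, and 74.7 and 57.7 in siAATF. Wider peaks hold more sequence and thus more words: the members with a loose core had a median width of 1026 bp in siControl and those without had 679 bp. What part of the difference in rank goes with width was not tested. The word did not mark all strong peaks, since BRCA1, FANCL and FANCI had none in peaks with −log10 q of 43.7, 60.2 and 31.8 in siControl, and it was present in the middle-ranked peaks of MRE11 and CHEK2 printed above. The 12 genes held 15 loose matches, 10 of them before the canonical start and 8 within 100 bp of the midpoint of the siControl peak.

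Between siControl and siAATF the ranks of the members differed little as a set. The median change of fold rank over the 31 genes was 0.0965 points, beside 0.182 over the 11778 coding genes with a promoter peak in both lists, and the sign of the members' median depends on the settings. The q rank gave a median change of −0.0641 points for the members and 0.462 for all. The fold rank was lower in siAATF for 15 of 31 genes, where 48.8% of coding genes were lower. It was lower by more than 20 points for 1 of 31, RAD51C, where 2.93% of coding genes were, and higher by more than 20 points for 0 of 31, which allows a share of up to 9.68%, where 3.70% of coding genes were. The number of members past 20 points ran from 0 to 4 over the settings tried, while the share of coding genes past it ran from 2.37% to 12.6%. The median size of the change, in either direction, was 5.29 points for the members and 5.12 for all coding genes. The members' median is the value of RAD52, whose chosen peaks lie at different starts, so it is not a change at a single site. The 4 largest upward differences at chosen peaks, in BRCA2, RAD54L, BLM and FANCM, were at siControl q ranks between 35.8 and 49.9, among the weaker peaks of the set. The canonical start of RAD52, not its chosen peak in siControl, had a larger upward difference of 16.6 points, at a siControl q rank of 70.0.

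The members with and without a loose core stood on different sides of 0 in fold rank, but not by much in q rank. With the loose core, 8 of 12 genes had a lower fold rank in siAATF and the median change was −3.42 points. Without it, 7 of 19 were lower and the median change was 3.06 points. By q rank the medians were −0.230 and 0.788 points, with 8 of 12 and 8 of 19 genes lower. Over all coding genes the fold rank changed by a median of −0.162 points with the loose core and 0.603 without, a smaller separation in the same direction.

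**Figure D3:**
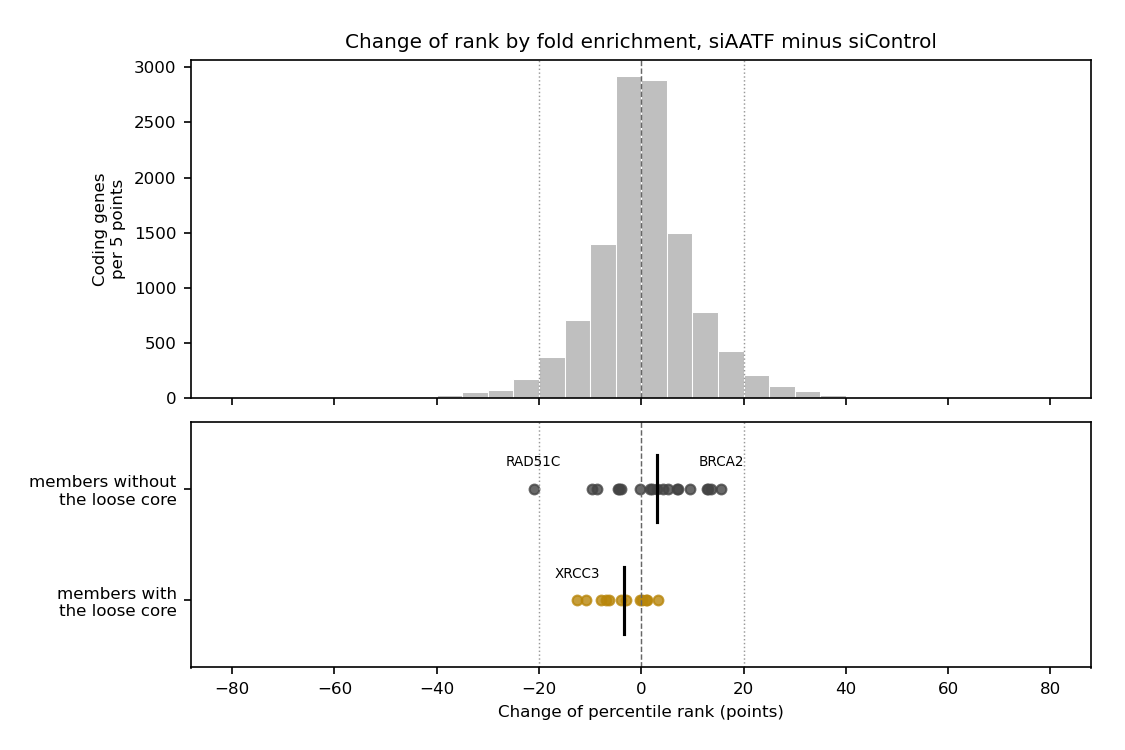
Change of fold rank, siAATF minus siControl, in percentile points, for all coding genes with a promoter peak in both lists (upper, genes per bin of 5 points) and for the members with and without a loose core (lower, 1 point per gene, black bars at the medians of −3.42 and 3.06). Dotted lines mark 20 points either way, and among the members RAD51C alone lies beyond one of them.

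Many members have a coding start close to that of a gene read in the other direction. A coding start of another gene on the opposite strand lay within 1 kb of a start of 14 of 34 genes, where 15.6% of coding genes have such a neighbour. At each of these 14 genes a peak was present in both lists, and of the other 20 genes 18 had one in each list. Over all coding genes the share with a promoter peak in siControl was 89.5% of the 3084 with such a neighbour and 55.8% of the 16737 without. The members with such a neighbour had the lower median q rank, 58.3 against 74.1 without in siControl and 57.8 against 72.5 in siAATF. Over all coding genes the order was the reverse, 70.0 against 63.9 in siControl and 72.0 against 64.8 in siAATF. A peak at a start with such a neighbour cannot be assigned to 1 of the genes. The pairs include BRCA2 with ZAR1L, whose starts are 142 bp apart, PALB2 with DCTN5 at 145 bp, MRE11 with ANKRD49 at 94 bp, RAD50 with IL5 at 92 bp, ATM with NPAT at 429 bp and CHEK2 with HSCB at 201 bp. NPAT is a regulator of histone genes at the entry into S phase, and HSCB is a cochaperone of mitochondrial iron-sulphur cluster assembly. The other members of such pairs were BRCA1, RAD51C, RAD51D, XRCC3, RAD52, FANCB, FANCF and FANCM. For BRCA1 and RAD52 the neighbours, NBR1 and ERC1, face the alternative start and not the canonical one.

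Words of other promoter factors were counted in the 300 bases from 250 before to 50 after each canonical start, on either strand. E2F words (TTTGGCGC, TTTCGCGC, TTTCCCGC or TTTGCCGC), bound by the factors that drive S phase genes, were found in 4 of 34 genes, XRCC2, FANCA, FANCC and FANCD2, and in 4.32% of all coding genes. The ETS word CCGGAAGT was in 5 of 34, BRCA2, PALB2, FANCD2, MRE11 and RAD50, and in 6.05% of all. CCAAT, the NF-Y word, was in 14 of 34 members and in 35.9% of all coding genes. TTTGAA, the core of the cell cycle homology region, was in 3 of 34, FANCC, BRIP1 and ATM, and in 11.5% of all. FANCD2, with its weak siAATF peak alone, thus had both an E2F and an ETS word. A match is a run of letters and not a shown site. The median GC content of these windows was 64.3% for the members and 63.7% for all coding genes.

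Promoter peaks in other genes of the same pathways and of other repair pathways were read in the same way. Of 39 further homologous recombination and Fanconi genes, 38 carried one in siControl and 37 did in siAATF, and 14 had a loose core in the siControl peak. Their median fold rank change was 0.104 points. The 14 loose cores among 38 peaks compare with 36.7% of all promoter peaks. The exact core was found in 6 of the 38 peaks, those of DNA2, GEN1, RMI2, HELQ, CENPS and MAD2L2, where 6.65% of all promoter peaks held it. CENPS had the strongest of these peaks, with a −log10 q of 96.6 in siControl and 84.8 in siAATF. HELQ had 79.3 and 70.3, DNA2 had 72.0 and 66.7, and GEN1 had 71.2 and 59.7. RMI2, a partner of BLM, had 17.5 and 15.9, and MAD2L2 had 12.4 and 11.7. EME1, a partner of the nuclease MUS81, had a peak only in siControl, with a −log10 q of 3.29, and MDC1 had none in either list. A promoter peak was present in siControl for all 11 genes of non-homologous end joining, all 7 of mismatch repair, 16 of 17 of base excision repair and all 14 of nucleotide excision repair. In siAATF the count differed only for base excision repair, with 15 of 17. The high share of genes with a peak was therefore found in each repair list, and nothing in these counts was particular to the 34 genes.

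**Figure D4:**
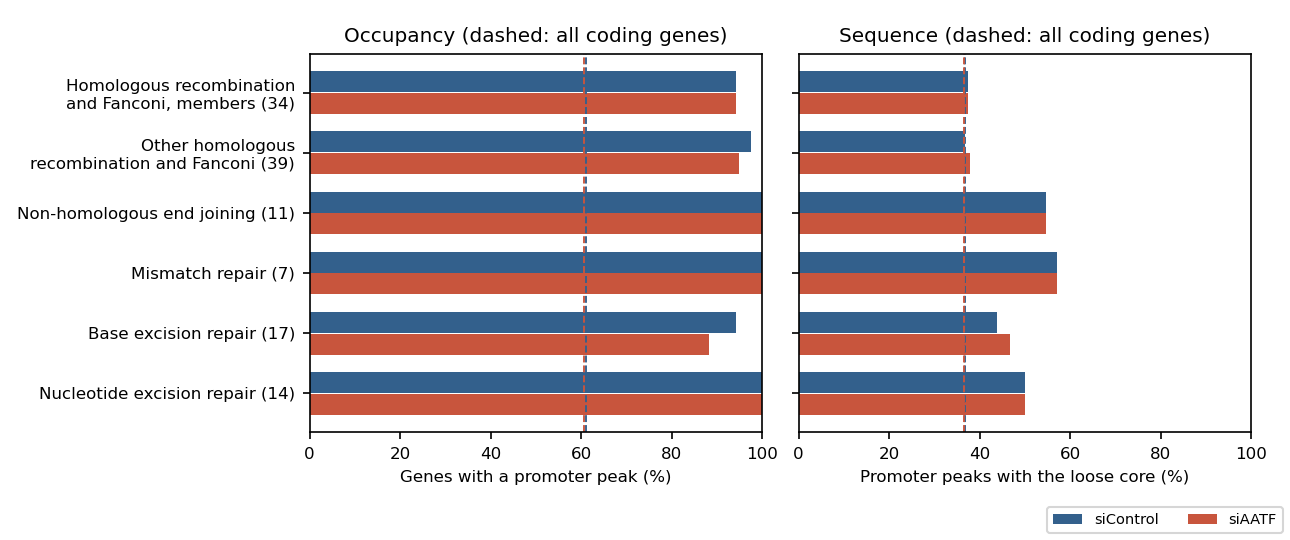
Share of genes with a promoter peak in percent (left) and share of those peaks with a loose core in percent (right) for the 34 genes and the other repair lists, with gene numbers in brackets, bars for siControl and siAATF (1 peak list each) and dashed lines at all coding genes. The 34 genes stand at 94.1% on the left, above the lines at 61.0% and 60.6%, and at 37.5% on the right, beside lines at 36.7% and 36.6%.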

How the data were processed

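NRF-1 ChIP-seq libraries were prepared by ChIPmentation, in which a transposase adds the sequencing adapters to the immunoprecipitated chromatin, and read from both ends. According to the study's methods and the submitters' processing notes, Bowtie2 aligned reads to hg19 and MACS2 called broad peaks within an nf-core ATAC-seq pipeline, version 2.0, at its defaults. Read shifting, which such pipelines can apply, would move peak edges in both lists. Their versions, and any input or IgG library, are not given in the sources used here. Duplicates were described, the labels number both samples 1, and pooling was not stated.

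Positions were deposited by the authors in bp on hg19. The fold enrichment over local background, a ratio, and the −log10 of each peak's p and q are values deposited by the authors. The display score deposited by the authors, the −log10 p and the number of reads (not in the lists) were not used. Weak peaks were kept by the authors, so presence in 1 list only depends on an unknown depth.

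Promoters were 1000 bp either side of any protein-coding transcript start (GENCODE release 44 lifted to GRCh37, 19821 genes), and an overlap of 1 base counted. A gene's peak was its promoter peak of highest −log10 q. Ranks run from 0 to 100 within a list, and changes are siAATF minus siControl. With 1 list per condition no p-value was computed. Named genes were those with the exact core, with a peak in 1 list or none, with a rank change of more than 20 points, the 3 highest and 3 lowest by −log10 q, and the highest and lowest of each role; the values of the others are given to account for every member. The members and all lists were chosen with earlier results of these data known. Python 3.11.15, pandas 2.3.3, numpy 2.4.6, scipy 1.17.1, pysam 0.24.0 and matplotlib 3.10.9 were used, and the peak and word searches were tested on simulated data. Alternatives were another promoter width, stricter peaks, another ranking and other word rules.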

Additional observations from a re-analysis of the deposited data

How the results depend on the processing

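Of 64 values under alternative settings over 18 results, 52 were counted as the same, although not all of these stayed close to the reported value. With peaks of −log10 q of at least 5, and ranks taken within those shorter lists, the median fold rank of the members was 68.4 in siControl and 62.7 in siAATF. Under that setting 8 of the 11 genes of non-homologous end joining kept a promoter peak in each list. The median change of fold rank, 0.0965 points as reported, took the other sign with peaks of −log10 q of at least 5 (−0.463), with promoters of 2 kb (−0.189), with ranking by −log10 q (−0.0641) and, in alternatives chosen after seeing the data, with ranks compared at overlapping peaks only (−0.189) and with the 10000 strongest peaks of each list (−1.03), so its direction cannot be given. The number of members whose rank changed by more than 20 points, 1 as reported, was 2 with −log10 q of at least 5 (BRCA2 and RAD51C), 4 of 23 with the 10000 strongest peaks (BRCA2, PALB2, RAD51C and BLM, against 12.6% of coding genes) and 0 with ranking by −log10 q. The number with the exact core, 2 in each list, was 12 in each list for the loose core and 1 in each list for cores within 100 bp of the peak midpoint. The cause of these differences was not tested, apart from the wider set of words that the loose core takes in. With those strongest peaks, 26 of 34 members kept a promoter peak in siControl, where 44.8% of coding genes had one. In siAATF 25 of 34 did, where 44.6% of coding genes had one. No paired analysis was possible because each condition had 1 peak list, and no list could be left out. Read depth, which limits weak peaks such as those of BRIP1 and FANCD2, was unknown.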

Other observations

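Several members had peaks inside or beside the gene away from the coding starts. FANCC had one at the outer end of its annotated gene on chromosome 9 (chr9:98188852-98189759), at position −109314 from the canonical coding start, with a −log10 q of 29.6 in siControl and 23.9 in siAATF. No protein-coding transcript of FANCC starts there in the annotation used, so the peak was not counted. RAD51B, which had no promoter peak, had a peak far inside the gene in both lists (chr14:69014881-69015756 in siControl), 728822 bp after its canonical start, with −log10 q values of 5.30 and 4.32. A weaker peak 268786 bp after that start (chr14:68555183-68555382) was in siControl alone, with a −log10 q of 2.49. BRCA1 likewise had a weak siControl peak at position −15409 from its canonical start, with a −log10 q of 1.97.

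The peaks within or next to FANCE, FANCG and NBN that were not at their own starts lay at promoters of neighbouring genes. These were RPL10A beside FANCE, with a −log10 q of 51.3 in siControl and 45.6 in siAATF, and DECR1 beside NBN, with 33.3 and 26.7. VCP lies beside FANCG. ATR had a peak in siAATF at the promoter of XRN1, with a −log10 q of 5.30.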
